A study of Mus musculus with 12 samples.

Results

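*Ccl3*, *Ccl4*, *Ccl5* and *Xcl1*, 4 chemokine genes that T cells transcribe, were described in PD-1+CD44+CD8+ T cells of lupus-prone mice. The 4 genes were chosen by name from 18992 gene identifiers in the deposited tables, and all 4 were found in every table. Levels were not used in the choice, but earlier results of these data were known. Levels of the 4 genes were read over all 33 cell clusters that the authors deposited.

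Cells were sorted from NZB/W F1 mice, the hybrid of the NZB and NZW strains, in which lupus nephritis develops with age. The 3 groups were spleen at 12 weeks (12W spleen), before disease, and spleen (28W spleen) and kidney (28W kidney) at 28 weeks, in advanced disease. Mice of all groups shared this strain and received no agent that the labels name, and no strain without lupus was part of these libraries. Each group has 4 labelled samples out of 12, whose titles differ only in a suffix from L001 to L004, so that they may be sequencing lanes of 1 library. Its table pools them with no map from cells to samples, so each group was 1 library. Differences between groups therefore had no replicate check, no test was possible, and each interval printed is a 95% interval that covers counting error only. The titles set the age of each sample, although the age entry given for 28W spleen says 12 weeks. Where values of the libraries are given in a row, library order means 12W spleen first, then 28W spleen, then 28W kidney.

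Chemokines are small secreted proteins that guide leukocytes through G protein-coupled receptors. *Ccl3*, *Ccl4* and *Ccl5* encode the CC chemokines MIP-1α, MIP-1β and RANTES, which attract T cells and monocytes, and *Xcl1* encodes lymphotactin, whose receptor XCR1 marks cross-presenting dendritic cells. In CD8+ T cells, *Ccl5* transcripts are known to be stored by memory and effector cells, whereas *Ccl3*, *Ccl4* and *Xcl1* are known to be induced rapidly by the antigen receptor.

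In GRCm38 with GENCODE M21, the CC members lay on chromosome 11 and *Xcl1* on chromosome 1. *Ccl3* spanned 83647844 to 83649355 on the minus strand, *Ccl4* 83662584 to 83664683 on the plus strand and *Ccl5* 83525778 to 83530518 on the minus strand. *Ccl3* and *Ccl4* were 13228 bases apart with 0 protein-coding genes between them. *Xcl1* spanned 164931644 to 164935527 on the minus strand, where an antisense transcript, *Gm20743*, overlapped it. The strand setting of the counting was not given in the sources used here, so reads of the antisense transcript cannot be told apart from *Xcl1*. Each member had 3 coding exons in the consensus set.

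Upstream sequence from RefSeq (GRCm38.p6) was matched for 2 of the 4 members, *Ccl3* and *Xcl1*. Both are shown because these genes, from different chromosomes and chemokine families, were highest in the same cluster of 12W spleen. Each run holds the 250 bases before the RefSeq start, 5′ to 3′ on the strand of the gene, with motif matches in capitals (the NFAT core GGAAA, printed as its reverse complement TTTCC where it lies on the other strand, and the T-box motif GGTGTGA). The *Ccl3* window is chr11:83649379-83649628 and the *Xcl1* window is chr1:164935523-164935772, both on the minus strand.
Ccl3: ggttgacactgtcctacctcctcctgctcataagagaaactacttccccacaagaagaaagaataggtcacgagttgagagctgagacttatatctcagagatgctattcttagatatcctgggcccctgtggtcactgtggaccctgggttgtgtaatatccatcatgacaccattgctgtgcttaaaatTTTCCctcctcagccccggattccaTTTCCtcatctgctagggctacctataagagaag
Xcl1: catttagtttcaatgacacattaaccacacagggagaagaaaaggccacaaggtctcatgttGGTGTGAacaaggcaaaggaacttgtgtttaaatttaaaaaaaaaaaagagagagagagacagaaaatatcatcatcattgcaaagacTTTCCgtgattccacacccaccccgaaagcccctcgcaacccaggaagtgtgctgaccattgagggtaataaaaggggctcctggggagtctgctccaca

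NFAT and T-box factors are transcription factors of activated and effector T cells. The NFAT core was found at 2 places before *Ccl3*, at -59 to -55 and -34 to -30 from the start, and at 1 place before *Xcl1*, at -100 to -96. This short run of letters occurs in 55.6% of the 32851 promoters of the table on either strand. The T-box motif was found before *Xcl1*, at -188 to -182, and occurs in 3.33% of promoters. The letters TGANTCA (AP-1), and GGG followed after 5 bases of any kind by CC (NF-kB), were in neither window and occur in 6.75% and 45.8% of promoters. These matches describe letters in a window and no binding was measured.

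The libraries held 6481 to 7135 cells each and 29937384 to 34742303 UMIs (unique molecular identifiers, each standing for 1 captured transcript). Levels are given as UMIs per 1000000 UMIs of the library or cluster (CPM). A 5′ UMI count carries no length term, so the members were also set side by side as UMIs. The tables hold cluster means, so the share of cells with a UMI of a gene was not analysed here. The libraries shared 52 to 66 cell barcodes in pairs. Transcripts of *Cd8a*, *Cd8b1*, *Cd3e* and *Cd3d* were present at 488 CPM or more in each library, and *Pdcd1* (PD-1) was at 36.6, 34.7 and 115 CPM in library order. Some clusters also carried raised markers of B, plasma, myeloid, granulocyte, erythroid or kidney tubule cells. In library order they were 1, 3 and 5 clusters with 15.4%, 12.9% and 34.6% of cells. Markers of natural killer (NK) cells were not used for this marking, so clusters high in them were kept where no other list was raised. In 12W spleen the 5 NK markers summed to 101 CPM in cluster 2, against 25.7 CPM over the library. In 28W spleen they summed to 79.0 CPM in cluster 2 and 87.0 CPM in cluster 9, against 35.0 CPM over the library. The part of NK cells in the chemokine levels was not tested.

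*Ccl5*, which encodes the T cell and monocyte attractant RANTES, was by far the most abundant member. The 12W spleen library had 1327 CPM (1315 to 1339), the 28W spleen library 3989.8 CPM (3968 to 4012) and the 28W kidney library 7495 CPM (7464 to 7526). Its place among all genes by level was 111, 54 and 9 in library order. The 28W spleen level was 3.01 times the 12W level (2.98 to 3.04), and the kidney level was 1.88 times that of 28W spleen (1.87 to 1.89). Per cell, this amounted to 6.69, 19.7 and 31.4 UMIs in library order. The intervals of the 3 libraries did not overlap.

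*Ccl4* and *Ccl3*, a neighbouring pair of CC chemokine genes, were far lower. For *Ccl4* the 12W spleen library had 89.1 CPM (85.9 to 92.3), the 28W spleen library 99.6 CPM (96.2 to 103) and the kidney library 356 CPM (349 to 362). The ratio between the spleens was 1.12 (1.06 to 1.18), and the kidney was at 3.57 times 28W spleen (3.43 to 3.72). Without the highest cluster of each library, cluster 7 in 12W spleen and cluster 2 in 28W spleen, *Ccl4* was at 21.9 and 60.9 CPM in the spleens, a log2 ratio of 1.48 in place of 0.16. *Ccl3* was at 9.90 CPM (344 UMIs, lower limit 8.88 CPM), 20.5 CPM (18.9 to 22.1) and 36.7 CPM (34.6 to 38.9) in library order, the lowest of the 4 members in each library. Its ratios were 2.07 (1.81 to 2.36) between the ages and 1.79 (1.63 to 1.98) between the organs.

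*Xcl1*, the ligand for XCR1+ dendritic cells, ran the other way between the ages. Its level was 366 CPM (360 to 372), 163 CPM (159 to 168) and 145 CPM (140.2 to 149) in library order. The 12W level was 2.24 times the 28W spleen level (2.17 to 2.32). The 28W kidney to 28W spleen ratio was 0.886 (0.851 to 0.923), and it turned to slightly above 1, at 166 CPM against 162 CPM, when clusters marked for other cell types were left out. Of the 4 members, *Xcl1* alone was lower in 28W spleen than in 12W spleen.

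**Figure D1:**
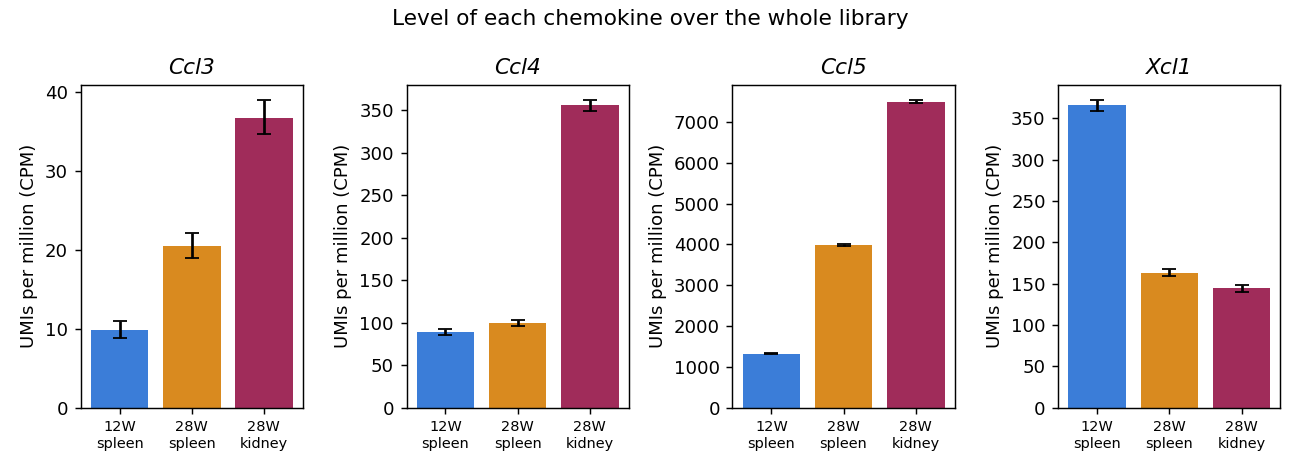
Level of each chemokine in the 3 libraries, in UMIs per 1000000 UMIs (CPM, y axis from 0, a separate scale for each gene). Bars are library levels and error bars are 95% exact Poisson intervals for counting error. *Ccl5* climbed from 1327 to 7495 CPM across the libraries, *Ccl4* was high in 28W kidney at 356 CPM, and *Xcl1* was highest in 12W spleen at 366 CPM.

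Set against the rest of the transcriptome, 2 of the 4 members (*Ccl3* and *Ccl5*) were at least 2-fold higher in 28W spleen than in 12W spleen, as were 4.93% of 12412 genes with at least 20 UMIs in the 2 libraries together. A member at least 2-fold lower was *Xcl1*, as were 3.50% of genes. These calls depend on settings. *Ccl3*, whose interval spans 2, had a log2 ratio of 0.98 with a pseudocount of 1 CPM and 0.62 with 10 CPM, below 2-fold. *Xcl1* had -0.44 without the highest cluster of each library, cluster 7 in 12W spleen and cluster 6 in 28W spleen, -0.96 with clusters weighted equally and -0.24 with the median cluster, also short of 2-fold. *Ccl4* passed 2-fold without the highest cluster and, at 1.77, with the median cluster. In 28W kidney over 28W spleen, 1 of the 4 members (*Ccl4*) was at least 2-fold higher, against 15.3% of 13189 genes, and 0 were at least 2-fold lower, against 2.91%. Settings changed this count too. *Ccl5* passed 2-fold, with a log2 ratio of 1.20, without clusters marked for other cell types. *Xcl1* passed it upward without the highest cluster, at 1.20. With the median cluster *Ccl3*, *Ccl5* and *Xcl1* passed it, at 1.57, 1.26 and 1.17. *Ccl4* stayed at 1.60 or more. The median log2 ratio over all genes tested was -0.10 between the ages and 0.12 between the organs, and the members' log2 ratios were 1.59 and 0.91 for *Ccl5*, 1.05 and 0.84 for *Ccl3*, 0.16 and 1.84 for *Ccl4* and -1.17 and -0.17 for *Xcl1*. Both comparisons share the 28W spleen library. Of 9 genes known to be induced by tissue dissociation, 7 were at least 2-fold higher in 28W than in 12W spleen (median log2 ratio 1.52), and 3 were higher and 1 lower in kidney than in 28W spleen (median 0.16). Their part in the chemokine levels was not tested. The study itself named *Ccl5* and *Xcl1* from these samples, so their directions are not independent evidence.

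The mix of the 4 transcripts therefore differed between libraries. *Ccl5* made up 74.1% (73.7 to 74.4) of the 62240 UMIs of the 4 members in 12W spleen, and its shares at 28W were 93.4% (93.2 to 93.5) in spleen and 93.3% in kidney. *Xcl1* made up 20.4% (20.1 to 20.7), 3.82% (3.72 to 3.92) and 1.80% in library order. *Ccl4* outnumbered *Ccl3* in every library, by 8.99 (8.04 to 10.1), 4.86 (4.47 to 5.30) and 9.69 (9.10 to 10.3) UMIs to 1 in library order. The ratio of this gene pair was thus about as high in 28W kidney as in 12W spleen, and lower in 28W spleen.

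The clusters were next compared within each library. They were made by the authors in each library separately, so a cluster number means nothing across libraries, and because the clustering used these genes the levels are a description. In 12W spleen the chemokines parted into 2 clusters. Cluster 7, with 372 cells or 5.40% of the library, held 81.9% (81.3 to 82.6) of all *Xcl1* UMIs, 78.9% (77.4 to 80.4) of *Ccl4* and 63.1% (57.7 to 68.2) of *Ccl3*. The same cluster held 0.898% (0.814 to 0.989) of *Ccl5* UMIs, and its 83.0 CPM was the lowest *Ccl5* level of the library. Cluster 7 had 13406 UMIs per cell and 14.4% of all UMIs, so its share of cells understates its share of RNA.

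In cluster 7, *Xcl1* was at 2088 CPM (2049 to 2129), against 314 CPM in cluster 9 and 17.2 to 140 CPM in the other clusters. *Ccl4* was at 489.7 CPM in cluster 7 and at most 81.8 CPM elsewhere, and *Ccl3* at 43.5 CPM (37.9 to 49.7) and at most 16.6 CPM elsewhere. *Ccl3* had 0 UMIs in cluster 6 and cluster 8, which allows up to 1.61 and 10.5 CPM from 3 counts. Of the UMIs of the 4 members in cluster 7, *Xcl1* took 77.2% (76.5 to 77.9), *Ccl4* 18.1% (17.5 to 18.8) and *Ccl5* 3.07% (2.78 to 3.37).

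*Ccl5* of 12W spleen lay in cluster 2, which had 16.2% of cells. There it was at 8055 CPM (7966 to 8145), with 67.7% (67.3 to 68.2) of all its UMIs and 27.9 UMIs per cell. The next cluster was cluster 3 at 1848 CPM, a cluster in which erythroid markers summed to 37158 CPM against a median of 11.6 CPM over clusters. Their part in the *Ccl5* level there was not tested. The other 8 clusters lay between 83.0 and 830 CPM, and *Ccl5* was 97.0 times as high in its highest cluster as in its lowest.

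In 28W spleen *Xcl1* was again concentrated, but *Ccl3* and *Ccl4* were not in the same cluster. Cluster 6, with 8.15% of cells, 20.1% of all UMIs and 12208 UMIs per cell, had 584 CPM of *Xcl1* (565 to 603) and 72.1% (70.8 to 73.3) of its UMIs. Cluster 8 stood at 547 CPM (476 to 627), not below cluster 6 beyond counting error, with only 4.02% of *Xcl1* UMIs. It had 1020.1 UMIs per cell, and its *Xcl1* level per cell was 0.559 UMIs, against 7.13 in cluster 6. Granulocyte markers summed to 22397 CPM and erythroid markers to 40824 CPM in cluster 8, and their part in its *Xcl1* level was not tested. Without the highest cluster of each library, *Xcl1* was at 77.2, 57.0 and 131 CPM in library order, so the kidney library was then the highest of the 3.

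*Ccl4* and *Ccl3* of 28W spleen lay with *Ccl5*. *Ccl4* was at 322 CPM (306 to 339) in cluster 2 and 316 CPM (265 to 373) in cluster 9, a pair that did not differ beyond counting error, and cluster 2 held 47.9% of its UMIs. *Ccl3* was also highest in this pair, which did not differ beyond counting error, at 77.8 CPM (53.9 to 109) in cluster 9 and 70.0 CPM (62.6 to 77.9) in cluster 2. *Ccl5* was at 18451 CPM in cluster 9 and 12039.7 CPM in cluster 2, which held 44.7% (44.4 to 45.0) of its UMIs. These orders hold for CPM, as cluster 9 had 1706 UMIs per cell and cluster 2 had 4621. Per cell, *Ccl5*, *Ccl4* and *Ccl3* were at 31.5, 0.539 and 0.133 UMIs in cluster 9. In cluster 2 they were at 55.6, 1.49 and 0.323 UMIs per cell. Cluster 6, the main *Xcl1* cluster, was among the lowest in *Ccl5* at 737 CPM, yet still held 27.7% of *Ccl3* UMIs.

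In 28W kidney the members were spread over more clusters. *Ccl5* was at 1000 CPM or more in 12 of 12 clusters, compared with 7 of 11 in 28W spleen, where cluster 10 was just under this level at 990 CPM, and 2 of 10 in 12W spleen. It ranged from 1143 CPM in cluster 2 to 15923 CPM (15745 to 16102) in cluster 6, and clusters 3 and 1 had 11172 and 10631 CPM. Cluster 2 was the cluster with the most plasma cell marker transcripts, 14581 CPM in sum. Without clusters with raised markers of other cells, 5 in kidney and 3 in 28W spleen, *Ccl5* was at 9426 and 4090.2 CPM.

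*Ccl4* of 28W kidney was at 142 CPM or more in every cluster, so the lowest kidney cluster exceeded 9 of 10 clusters of 12W spleen and 9 of 11 of 28W spleen, where cluster 11, at 141 CPM, was only just below. Its highest kidney level, 743 CPM (691 to 797), was in cluster 12, as was that of *Ccl3* at 120.4 CPM (100.2 to 143). In this cluster the 8 myeloid markers summed to 12928 CPM and the 4 granulocyte markers to 17854 CPM, and *Csf1r*, *C1qa* and *S100a8* were each highest there among kidney clusters. Cluster 12 held 2.58% of cells, 11.4% of *Ccl3* and 7.24% of *Ccl4* UMIs. Without the 5 clusters with raised markers of other cells, *Ccl4* was at 382 CPM and *Ccl3* at 37.6 CPM, about as high as with them. The next cluster was 6, at 565 CPM of *Ccl4* and 52.8 CPM of *Ccl3*, the cluster with the highest *Ccl5*.

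The highest kidney cluster of *Xcl1* was at 1.69 times the library level, the lowest such ratio of the 4 members. Its highest level was 7.18 times its lowest, against 5.24 times for *Ccl4* and 6.66 for *Ccl3*. The member ranged from 34.1 CPM in cluster 2 to 245 CPM (229 to 262) in cluster 4, and cluster 4 held 19.6% of its UMIs. Cluster 8, in which B cell markers summed to 1970.2 CPM, was second at 215 CPM (198 to 233), and cluster 9 followed at 203 CPM, which did not differ from cluster 8 beyond counting error. In the order of *Xcl1* levels, 2 of 9 neighbouring pairs of clusters in 12W spleen, 6 of 10 in 28W spleen and 7 of 11 in kidney did not differ beyond counting error. No kidney cluster had a level near that of cluster 7 of 12W spleen.

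**Figure D2:**
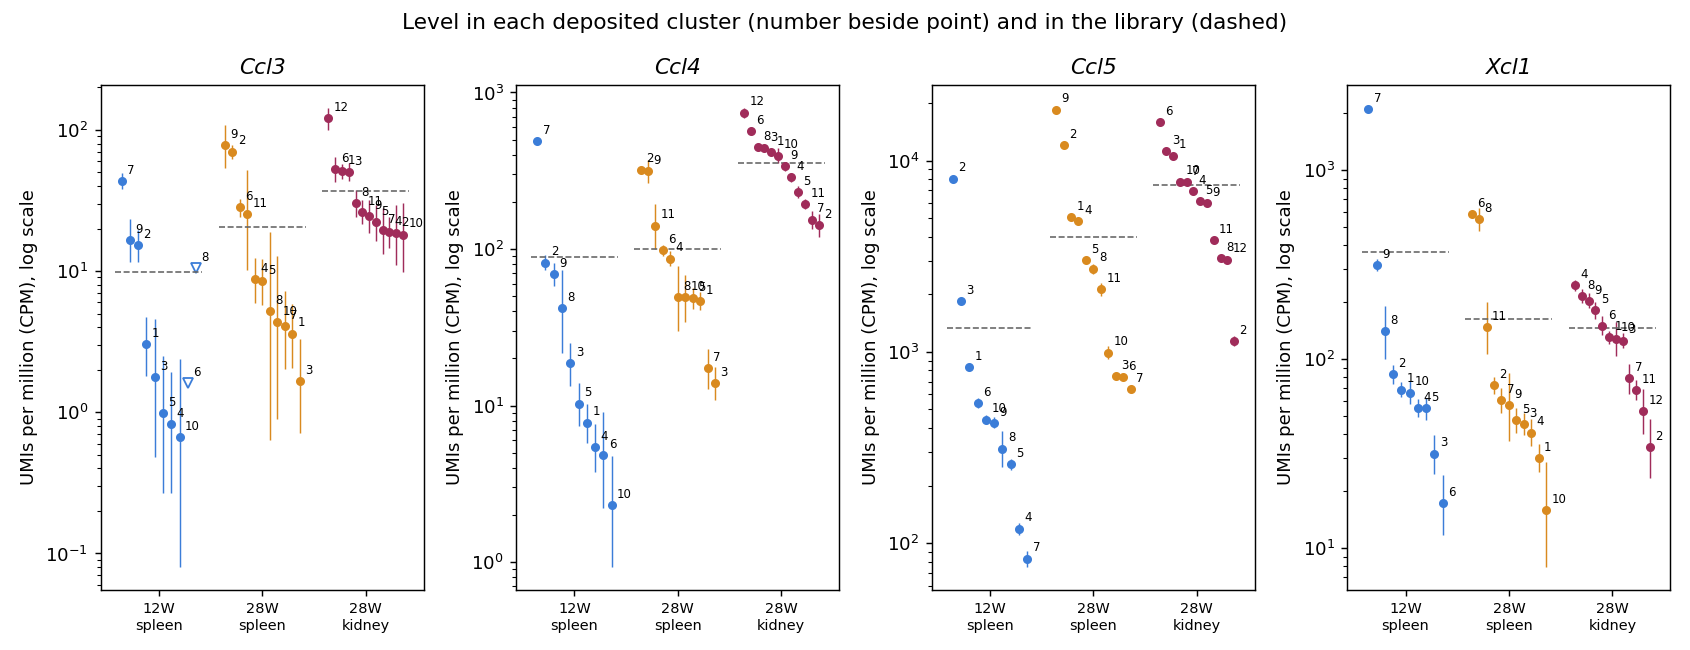
Level of each chemokine in every deposited cluster, in CPM on a log scale, with clusters ordered from highest to lowest within each library along the x axis. Points are cluster levels with 95% Poisson intervals, numbers are cluster numbers, open triangles mark the limit of 3 counts where a gene had 0 UMIs, and dashed lines are library levels. *Xcl1* in cluster 7 of 12W spleen, at 2088 CPM, stands above all other clusters, and kidney clusters of *Ccl4* all lie at 142 CPM or more.

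The concentration in 1 cluster was set beside that of other genes. Among genes of at least 20 CPM, the highest cluster reached at least 2 times the library level for 46.0% of 5307 genes, 36.7% of 5124 and 26.5% of 5381 in library order. All 3 members above 20 CPM did so in 12W spleen, at 5.50 times for *Ccl4*, 5.71 for *Xcl1* and 6.07 for *Ccl5*. In 28W spleen all 4 did, from 3.23 times for *Ccl4* to 4.62 for *Ccl5*. In 28W kidney 3 of 4 did, at 3.28 times for *Ccl3*, 2.09 for *Ccl4* and 2.12 for *Ccl5*, while *Xcl1* reached 1.69 times. The median over all these genes was 1.89, 1.72 and 1.56 times in the 3 libraries.

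**Figure D3:**
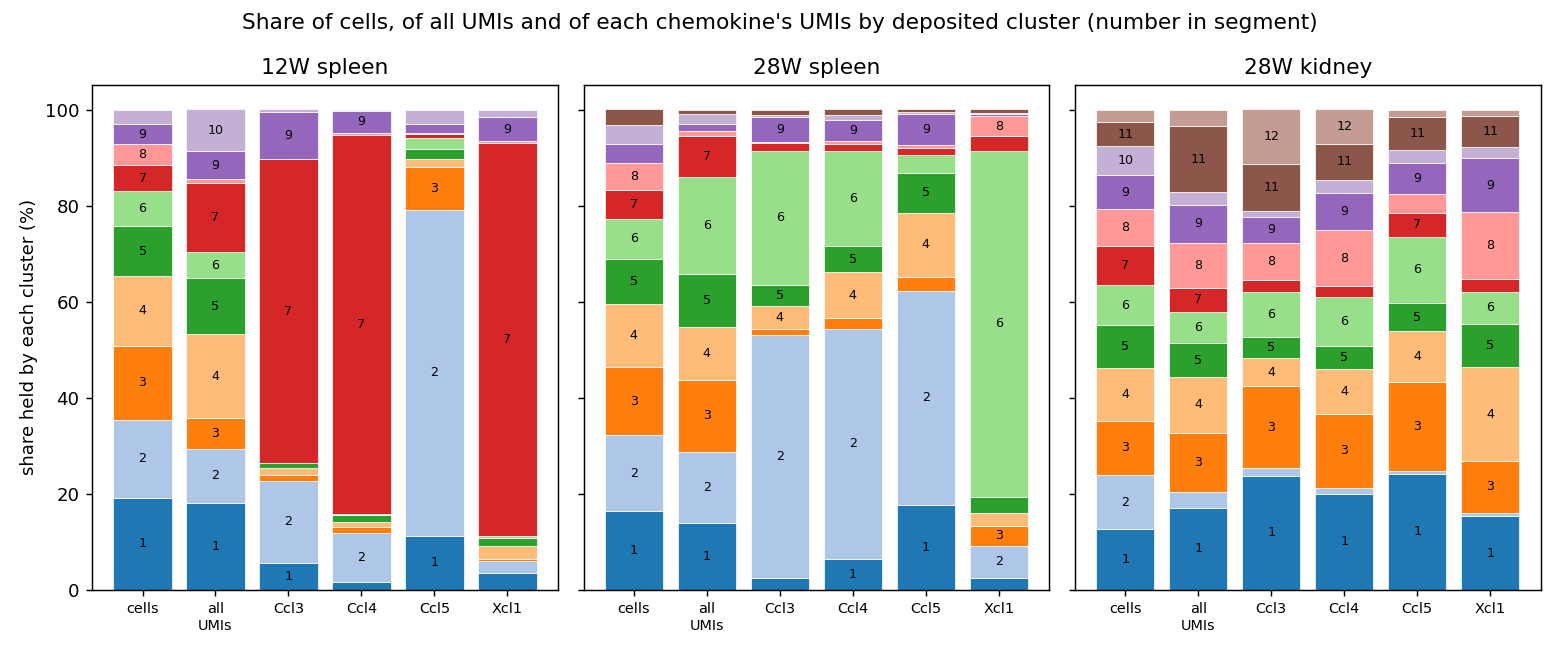
Share (%, y axis) of cells, of all UMIs and of the UMIs of each chemokine that each deposited cluster held, stacked within the 3 libraries; numbers in the segments are cluster numbers and colours are not matched across libraries. In 12W spleen cluster 7 held 5.40% of cells and 81.9% of *Xcl1* UMIs, whereas the largest *Xcl1* share of a kidney cluster was 19.6%.

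Likeness between members was measured over the 33 clusters by Pearson's r of log2(CPM + 10), centred within each library. These values are descriptions, since clusters of 1 library share its depth and their own definition. The chromosomal neighbours *Ccl3* and *Ccl4* were most alike, with r = 0.87 (Spearman's rho 0.78), and r was 0.92, 0.94 and 0.78 within the libraries, in library order. Over the 24 clusters without raised markers of other cells, r was 0.88. *Ccl4* and *Xcl1* had r = 0.56, which came mostly from 12W spleen, at 0.89 there against 0.16 in 28W spleen and 0.31 in 28W kidney. *Ccl5* and *Xcl1* had r = -0.19, at -0.43 and -0.16 in the spleens and 0.56 in kidney. The centred correlation of each member with UMIs per cell was between -0.27 and 0.19, and within single libraries it ranged from -0.39 (*Ccl5*, 28W spleen) to 0.44 (*Ccl3*, 12W spleen).

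**Figure D4:**
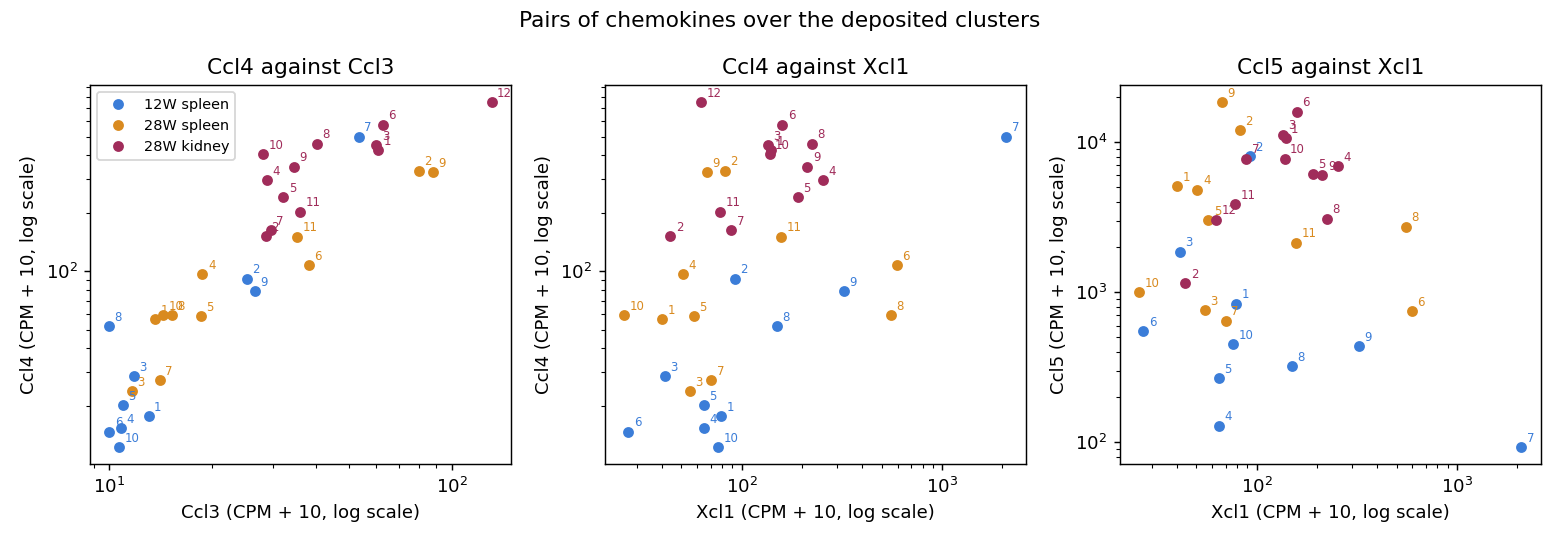
Pairs of chemokines over the 33 deposited clusters, both axes in CPM + 10 on log scales, with 1 point a cluster, its number beside it and colours for the 3 libraries. *Ccl3* and *Ccl4* rise along 1 diagonal, with r = 0.87 after centring, while cluster 7 of 12W spleen lies far to the right in *Xcl1* and at the bottom in *Ccl5*.

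Of 5833 genes ranked, those most like *Xcl1* were *Rsl1d1* (r = 0.88), *Tnfrsf9* (0.86), *Nefh* (0.85), *Wdr55* (0.85) and *Cd320* (0.84). Within either spleen each had r of 0.81 or more. Within kidney r was lower, at 0.80, 0.21, 0.35, 0.62 and 0.52 in the same order. *Tnfrsf9* encodes the costimulatory receptor 4-1BB and was at 523 CPM in cluster 7 of 12W spleen, against 99.7 CPM over that library. Those most like *Ccl5* were *S100a6* (0.85), which encodes a calcium-binding protein, *Ifitm10* (0.83), *Vopp1* (0.79), *Casp1* (0.79) and *Gzmk* (0.78), a granzyme gene. *Gzmk* was at 25.1, 138 and 574 CPM in library order, climbing as *Ccl5* did. *Ccl3* and *Ccl4* ranked each other first, and *Ier3*, an immediate early gene, was second for both (0.71 and 0.82). The remaining genes were *Tigit*, which encodes an inhibitory receptor, *St3gal4* and *Bud23* for *Ccl3*, at 0.67 each, and *Gpn1* (0.75), *Bcl2a1b* (0.73), an antiapoptotic gene, and *Npepl1* (0.72) for *Ccl4*. Within kidney r was 0.27 for *Tigit* with *Ccl3*, and 0.22 for *Gpn1* and 0.17 for *Npepl1* with *Ccl4*. The other genes named for *Ccl3* and *Ccl4* had r of 0.58 or more there. With Spearman's rho in place of r, 2, 2, 3 and 2 of the 5 genes named for *Ccl3*, *Ccl4*, *Ccl5* and *Xcl1* stayed among the top 5.

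The 5 receptors of the members described here were each below 10 CPM in every library. *Ccr3*, a receptor gene known from eosinophils, was at 0.720 CPM (0.466 to 1.06), 1.12 CPM (0.787 to 1.56) and 9.02 CPM (7.98 to 10.2) in library order, and *Ccr1*, known from myeloid cells, was at 0.0576, 0.781 and 0.902 CPM. In kidney *Ccr3* was highest in cluster 6, the cluster with the highest *Ccl5*, at 21.7 CPM. It was at 0.963 CPM in the myeloid-marked cluster 12, where *Ccr1* was highest, at 13.5 CPM. *Xcr1* was at 0.317, 0.906 and 2.67 CPM and had its highest level, 61.6 CPM, in kidney cluster 12, which carries myeloid markers. The scavenger receptors *Ackr1* and *Ackr2* had at most 2 UMIs in any library. Of 3 receptors with enough UMIs, 2 (*Ccr1* and *Xcr1*) were at least 2-fold higher in 28W spleen than in 12W spleen (4.93% of all genes), and 2 (*Ccr3* and *Xcr1*) were at least 2-fold higher in 28W kidney than in 28W spleen (15.3%). Between the ages *Ccr1* had 2 and 25 UMIs, and *Xcr1* 11 and 29. Both were highest in cluster 10 of 28W spleen, at 24.6 and 36.1 CPM. B cell markers summed to 2631 CPM and myeloid markers to 2027 CPM in that cluster, and the part of such cells was not tested.

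Of 30 other chemokines listed, 25 were found, and 16 of these had at least 20 UMIs in a library. *Cxcl10*, an interferon-induced ligand of CXCR3, was the most abundant in both 28W libraries, while *Ccl25* was the most abundant in 12W spleen, at 7.63 CPM (6.74 to 8.60). *Cxcl10* was at 2.76 CPM (2.24 to 3.37), 12.8 CPM (11.6 to 14.1) and 41.5 CPM (39.2 to 43.9) in library order. *Ccl12*, *Cxcl16*, *Cxcl2* and *Ccl6*, known as products of myeloid cells, were at 9.25 to 11.4 CPM in 28W kidney and were highest in cluster 12, at 325, 251, 206 and 237 CPM. *Ccl2*, a ligand for monocytes, had 0 UMIs in both spleens and 126 in kidney, with 120 CPM in the same cluster. Of those with enough UMIs, 5 of 10 were at least 2-fold higher in 28W than in 12W spleen and 1 was lower (4.93% and 3.50% of all genes). Between the organs, 10 of 15 were higher in kidney and 1 was lower (15.3% and 2.91%). *Cxcl9*, *Cxcl16*, *Cxcl13* and *Ccl8* of 28W spleen were highest in cluster 10, at 103, 60.7, 50.6 and 46.3 CPM, where B cell markers summed to 2631 CPM and myeloid markers to 2027 CPM, and the part of such cells was not tested. *Ccl11*, *Ccl28*, *Cxcl5*, *Cxcl11* and *Cxcl15* were looked for and not found in any library, so no level is given for them. Every chemokine found other than the 4 members was below *Ccl4* in every library.

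**Figure D5:**
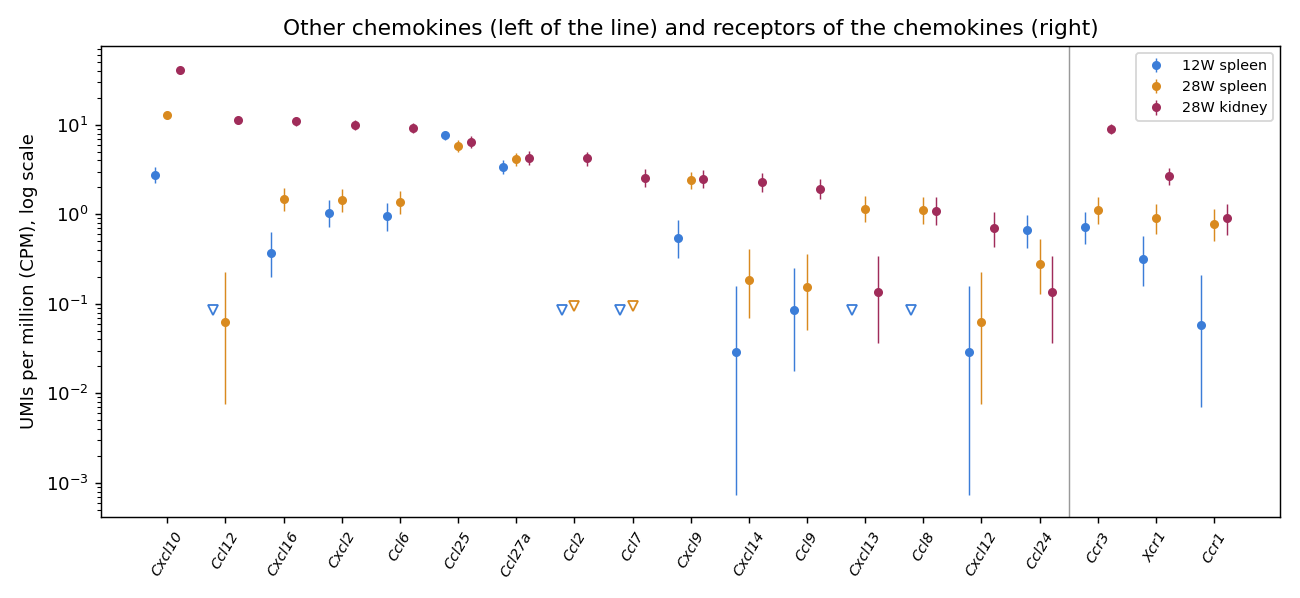
Library levels (CPM, log scale) of the other chemokines and of the receptors with at least 20 UMIs in a library, with 95% Poisson intervals; open triangles mark the limit of 3 counts for 0 UMIs. *Cxcl10* in 28W kidney, at 41.5 CPM, is the highest level of the genes drawn.

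Genes that respond to the antigen receptor were described next, because *Ccl3*, *Ccl4* and *Xcl1* are known to belong to that response. In cluster 7 of 12W spleen, *Myc*, which drives cell growth, was at 541 CPM, against 153 CPM over the library, and the nuclear receptor gene *Nr4a1* was at 211 CPM, against 67.4 CPM. Cluster 2 of the same library, the main *Ccl5* cluster, had 67.1 CPM of *Myc*, 12.4 CPM of *Nr4a1* and 7.22 CPM of *Tnfrsf9*. Of the 16 genes listed, 11 were highest in cluster 7 of 12W spleen. *Cd69* and *Egr1* were below their library levels there, at 113 CPM against 148 CPM and 57.6 CPM against 59.8 CPM. How many of all genes were highest in each cluster was not analysed here, so counts by highest cluster have no background. In 28W spleen 3 of 16 were highest in cluster 6, the main *Xcl1* cluster, namely *Myc*, *Nr4a1* and *Tnfrsf9* at 167, 59.1 and 153 CPM. The other 13 were highest elsewhere, and *Cd69*, at 143 CPM in cluster 6 against 217 CPM over the library, was below its library level. In kidney 13 of 16 were highest in the B cell-marked cluster 8, among them *Nr4a1* at 733 CPM and *Tnfrsf9* at 33.9 CPM. Over the kidney library *Tnfrsf9* was at 17.2 CPM. Kidney cluster 8 had 215 CPM of *Xcl1* and 448 CPM of *Ccl4*, above their library levels of 145 and 356 CPM. *Ccl3* was below its library level there, at 30.3 CPM against 36.7 CPM. The part of B cells in the levels of kidney cluster 8 was not tested. Of 16 genes of this list, 1 was at least 2-fold higher and 3 (*Nr4a1*, *Egr3* and *Tnfrsf9*) at least 2-fold lower in 28W spleen than in 12W spleen, with a median log2 ratio of -0.26, against 4.93% and 3.50% of all genes. Between the organs, 3 were higher and 3 lower, against 15.3% and 2.91% of all genes.

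Cytokine and cytotoxic genes had the same order of libraries as *Ccl5*. Of 11 with enough UMIs, 6 were at least 2-fold higher in 28W spleen than in 12W spleen and 7 in kidney than in 28W spleen, and 0 were lower in either, with median log2 ratios of 1.06 and 1.13. Of all genes, 4.93% and 15.3% were higher and 3.50% and 2.91% lower in these comparisons. *Ifng*, the gene of interferon-γ, was at 10.0 CPM (9.02 to 11.2), 63.5 CPM (60.8 to 66.4) and 85.0 CPM (81.7 to 88.4) in library order. *Gzmb*, the gene of granzyme B, was at 8.81, 28.3 and 282 CPM. *Nkg7*, a granule membrane protein gene, was the most abundant of the list, at 430, 767 and 1843 CPM. Cluster 2 of 12W spleen, with most *Ccl5*, was also the highest of its library in 9 of the 12 genes listed, among them *Ifng*, *Gzmk*, *Fasl*, *Prf1* and *Nkg7*. The share of all genes highest in cluster 2 was not analysed here. *Gzmb* was highest in cluster 7, at 31.5 CPM against 24.5 CPM in cluster 2. *Tnf* was highest in cluster 8, which had the fewest UMIs per cell of that library, at 928. *Ifng* was at 39.2 CPM in cluster 2 and 23.3 CPM in cluster 7, both above the library level.

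Of 12 transcription factors known to act on chemokine genes, 0 were at least 2-fold apart between the ages, against 4.93% of all genes higher and 3.50% lower. Between the organs, 2 (*Prdm1* and *Zeb2*) were at least 2-fold higher in kidney, a share near the 15.3% of all genes. *Tbx21*, the gene of the T-box factor T-bet, was at 19.2 CPM (17.7 to 20.7), 37.5 CPM (35.4 to 39.7) and 73.6 CPM (70.5 to 76.7) in library order. Its highest 12W cluster was cluster 2, at 77.1 CPM, as for *Ccl5*. *Eomes*, a related T-box factor, was highest in cluster 7 of 12W spleen, at 177 CPM, as for *Xcl1*. Most of the list lay elsewhere, with 8 of the 12 factors highest in cluster 8 of that library. Cluster 8 had 928 UMIs per cell, the fewest of 12W spleen, and 0.820% of all UMIs. Mitochondrial transcripts were 8.98% of its UMIs, against 0.612% to 1.32% in the other clusters. The part of this low RNA content in the levels of cluster 8 was not tested. In cluster 7, *Runx3*, *Klf13*, *Irf1* and *Nfatc2* were at their lowest of 12W spleen, at 60.2, 69.8, 28.5 and 7.62 CPM. *Nfatc1*, *Nfkb1*, *Rel* and *Zeb2* were, like *Eomes*, above their library level there. *Klf13*, known as a late activator of *Ccl5* in T cells, was at 210, 208 and 179 CPM, a nearly level course beside the *Ccl5* values.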

How the data were processed

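Libraries of sorted PD-1+CD44+CD8+ T cells used the 10x Genomics 5′ v2 chemistry. The submitters' processing notes name Cell Ranger 2.1.1, R 3.6.1 and GRCm38; the study's methods name another Cell Ranger version for receptor sequences. The annotation release, cell filters and doublet treatment are not given in the sources used here, and no doublet caller could be run on cluster means. Per library the authors deposited each barcode's cluster and a mean UMI count per gene and cluster (scaled by the authors to the library's median total per cell). The authors' log2 fold changes and adjusted p-values were not used. Each column held whole multiples of 1 step; dividing by it gave whole UMIs for 100% of values within 0.001. UMIs were summed over clusters and scaled per 1000000, on which levels set across libraries rest, since the authors scaled each table on its own. Collagenase digestion is described for kidney alone, so organ and preparation cannot be told apart.

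With 1 library a group, no p-value was computed. Intervals were exact Poisson for levels, exact binomial (Clopper-Pearson) for shares and exact conditional for ratios (Python 3.11.15, scipy 1.17.1), tested on simulated data. A gene was called at a ratio of at least 2 or at most 0.5 with at least 20 UMIs in both libraries together. Clusters were marked as raised for another cell type where its summed markers were at least 5 times the median cluster and at least 100 CPM. The NK cell list was not used for this marking. Named genes were the members, up to 4 a list with the highest level or largest ratios (others that are named were chosen after their values were seen), and the 5 most correlated genes a member among genes of at least 20 CPM in a library. Members and lists were chosen with earlier results of these data known. Clonotypes were not used here, and 1 listed gene is not reported here.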

Additional observations from a re-analysis of the deposited data

How the results depend on the processing

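The log2 ratios of the 4 members were recomputed under 9 alternatives, 2 of them (UMIs per cell and the median cluster) chosen after seeing the data. All kept their direction except *Xcl1* between the organs, which turned from -0.17 to 0.03 without clusters marked for other cell types, 1.20 without the highest cluster of each library and 1.17 with the median of the cluster levels. The leaving out of the highest cluster removes most *Xcl1* UMIs of both spleens; for the other settings the cause was not tested. Values that moved beyond counting error are given by setting, first between the ages and then between the organs. With a pseudocount of 10 CPM, *Ccl3* was at 0.62 and *Xcl1* at -1.12, then *Ccl3* at 0.62 and *Ccl4* at 1.74. With scaling by the median gene ratio, *Ccl4* was at 0.26, *Ccl5* at 1.69 and *Xcl1* at -1.07, then *Ccl4* at 1.77, *Ccl5* at 0.85 and *Xcl1* at -0.24. With a total that left out ribosomal protein, mitochondrial and T cell receptor genes, *Ccl5* was at 1.62, then *Ccl3* at 0.66, *Ccl4* at 1.66, *Ccl5* at 0.73 and *Xcl1* at -0.35. With clusters weighted equally, *Ccl3* was at 1.39, *Ccl4* at 0.56, *Ccl5* at 1.85 and *Xcl1* at -0.96, then *Ccl4* at 1.75 and *Ccl5* at 0.57. Without clusters marked for other cell types, *Ccl5* was at 1.66 and *Xcl1* at -1.27, then *Ccl4* at 1.92 and *Ccl5* at 1.20. Without the highest cluster of each library, *Ccl3* was at 2.21, *Ccl4* at 1.48, *Ccl5* at 2.98 and *Xcl1* at -0.44, then *Ccl4* at 2.49 and *Ccl5* at 0.87. With UMIs per cell, *Ccl5* was at 1.56, then *Ccl3* at 0.61, *Ccl4* at 1.60, *Ccl5* at 0.67 and *Xcl1* at -0.41. With the median of the cluster levels, *Ccl3* was at 2.63, *Ccl4* at 1.77, *Ccl5* at 2.65 and *Xcl1* at -0.24, then *Ccl3* at 1.57, *Ccl4* at 2.89 and *Ccl5* at 1.26.

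Genes at least 2-fold higher and lower were 612 and 435 between the ages and 2020 and 384 between the organs with at least 20 UMIs. They were 2370, 1891, 4984 and 1440 in the same order with at least 1 UMI, and 296, 185, 933 and 216 with at least 100 UMIs, as a lower minimum admits genes with large counting error. With levels not centred within libraries, 3 of the 5 genes named as most like each member stayed among its top 5.

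No paired analysis was possible because the tables pool the samples of a group and give no map from cells to samples. For the same reason the leaving out of single replicates was not run. Variation between mice, sorts and preparations is not measured here, and 1 library a group limits every comparison. *Ccl3*, with 344 UMIs in 12W spleen, has the widest intervals of the members.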

Other observations

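Genes known to be induced by tissue dissociation also differed between the libraries. Of 9 listed, 7 were at least 2-fold higher in 28W spleen than in 12W spleen, against 4.93% of all genes. Their median log2 ratio was 1.52. Between the organs, 3 were at least 2-fold higher and 1 lower in 28W kidney than in 28W spleen, against 15.3% and 2.91%. *Hspa1a*, a heat shock gene, was at 2.65 CPM in 12W spleen, 24.9 CPM in 28W spleen and 670 CPM (661 to 679) in 28W kidney. *Atf3*, a stress-induced transcription factor gene, was at 0.403, 0.812 and 20.3 CPM. *Fos* was at 123, 459 and 196 CPM, highest in 28W spleen. The part of these genes in the chemokine levels was not tested.

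Among 5 factors that are known to shorten the life of cytokine and chemokine mRNAs, 1 was at least 2-fold higher in each comparison, against 4.93% of all genes between the ages and 15.3% between the organs. *Zfp36*, the gene of tristetraprolin, was at 192 CPM (188 to 197) in 12W spleen, 455 CPM (448 to 463) in 28W spleen and 231 CPM (226 to 237) in 28W kidney, the gene at least 2-fold higher between the ages. *Zc3h12a*, the gene of the ribonuclease Regnase-1, was at 8.61, 13.4 and 33.3 CPM and was the gene at least 2-fold higher between the organs. *Zfp36l1*, *Zfp36l2* and *Rc3h1* stayed within 2-fold in both comparisons.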
